A study of Homo sapiens with 9 samples.

Results

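The study used 3 small interfering RNAs (siRNAs) against TRMT12, each set against a control siRNA in SKbr3 cells, and the comparison described here is siRNA 3 with siRNA 2. SKbr3 is a breast cancer line of luminal epithelial type with amplified HER2. The 6 arrays of TRMT12 siRNA-3 and TRMT12 siRNA-2, 3 for each siRNA, were chosen by their labels out of 9 arrays in all; the other 3 belong to TRMT12 siRNA-1 and are given beside the results. On every array, RNA of knockdown cells and RNA of control-siRNA cells were labelled with different dyes and hybridised together to a printed long-oligonucleotide array. For each siRNA the knockdown RNA carried Cy5 on 2 arrays and Cy3 on 1, so siRNA 3 and siRNA 2 are matched for dye. The values below are log2 ratios of knockdown over control, and a difference is the log2 ratio with siRNA 3 minus that with siRNA 2.

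TRMT12 (current symbol TYW2) encodes an enzyme of wybutosine synthesis, the pathway that builds a bulky modified base beside the anticodon of phenylalanine tRNA and helps the ribosome hold its reading frame. An siRNA guides the cell's Argonaute proteins to a matching messenger RNA, and through its seed it can also lower transcripts that match only in part. Different siRNAs against one gene are therefore used side by side. The sequences of the siRNAs are not used here.

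Some features of the groups limit them as models. The series text names one control siRNA for all comparisons, while the labels number the control RNA after each TRMT12 siRNA, so whether all arrays shared one control preparation was not settled. Nothing in the labels says that the 3 arrays of an siRNA came from separate transfections, so the spread behind the p-values is that of hybridisations and may be purely technical, and a difference between siRNAs cannot be told apart from a difference between cultures. The cell line markers were present: all 11 SKbr3 markers looked for were above background in both channels on the 6 arrays, and their median intensity lay at percentile 85.4 of tested probes. The stromal and blood cell markers lay at a median percentile of 20.0. Arrays 1 and 2 of siRNA 2 stood apart: 24.3% and 22.4% of probes had no ratio there, against 2.57% to 14.4% on the siRNA 3 arrays and 2.68% on the remaining siRNA 2 array, and the log2 ratios of siRNA 2 array 2 had an SD of 0.769, against 0.266 to 0.444 on the other 5.

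TRMT12 itself was lowered with both siRNAs, and no difference in its level was detectable. Its log2 ratio was -2.61, -2.51 and -2.35 on the siRNA 3 arrays, against -2.62, -2.62 and -2.36 on the siRNA 2 arrays. With the dye orientations pooled, the ranges overlapped almost fully. Within each orientation the siRNA 3 arrays lay slightly higher, by 0.06 with the knockdown in Cy5 and by 0.01 on the exchanged arrays. Of 24883 probes with all values, 43.2% were separated within both orientations, in one direction or the other. The difference was 0.05 (SE 0.0857, 95% confidence interval -0.16 to 0.25, limma adjusted p = 0.762), and an interval of this width does not show that the levels were equal. The sign of this small difference turned with the normalisation, as listed in the closing section. With siRNA 1 the ratio was -2.62.

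At this knockdown, 2869 of 28139 tested probes differed between siRNA 3 and siRNA 2 at an adjusted p under 0.05, which is 10.2% of those tested. Of these, 1501 were higher with siRNA 3 (5.33%) and 1368 were lower (4.86%). Most differences were small: 51 of the higher and 21 of the lower probes passed 2-fold, and the median size of a called difference was 0.44. The test is limma's moderated fit with a dye term over all 9 arrays, with Benjamini-Hochberg adjustment over all tested probes; adjusted p below always means this test. Against control, 5658 probes were called with siRNA 3 (20.1%) and 5723 with siRNA 2 (20.3%), and both of these comparisons use the same arrays as the difference. The dye term itself was called for 8208 probes. Ratios against control therefore depend on the dye correction, which rests on 1 exchanged array for each siRNA.

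The number of calls depended strongly on the arrays that set the spread estimate and on the normalisation. When only the 6 arrays of siRNA 3 and siRNA 2 entered the fit, 0 probes passed by limma, with 6004 at an unadjusted p under 0.05. Centring each array on its median in place of the intensity-dependent loess left 61 calls, and the authors' calibrated ratio left 989. Leaving out 1 array at a time left 536 calls without siRNA 3 array 1, 663 without siRNA 3 array 2, 1326 without siRNA 3 array 3, 1117 without siRNA 2 array 1, 1900 without siRNA 2 array 2 and 2358 without siRNA 2 array 3. None of the 40 genes named below for the size of their difference changed sign in any of these settings. They were chosen for large differences without overlap on these same arrays, so the choice itself largely fixed their sign. The fit on 6 arrays changes only the spread estimate for them and leaves their differences as they were. With the 6 arrays alone, EFEMP1, the gene with the largest difference, had an adjusted p of 0.058.

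**Figure D1:**
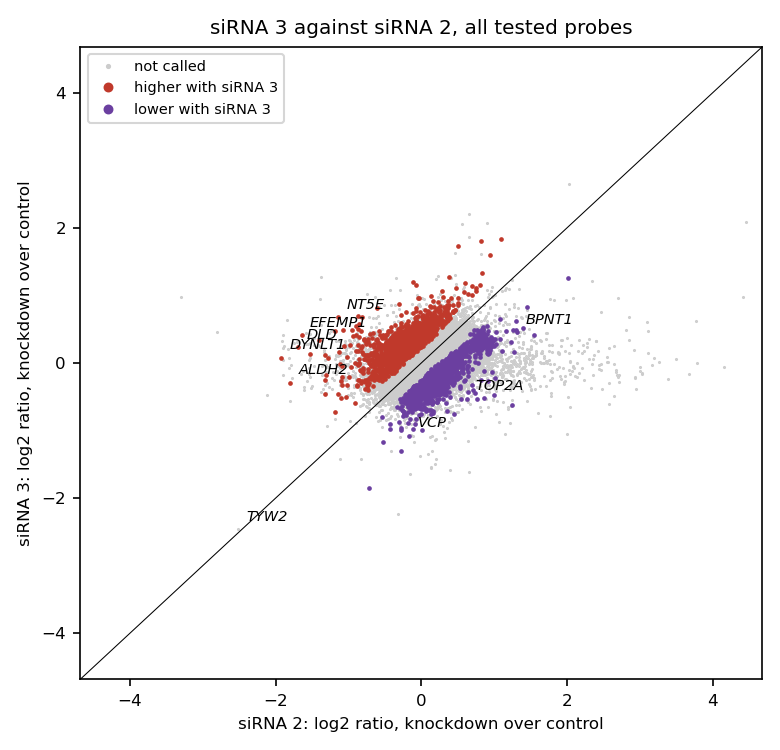
Each point is 1 of 28139 tested probes, with its mean log2 ratio with siRNA 2 on the horizontal axis and with siRNA 3 on the vertical axis; red probes were called higher and purple probes lower with siRNA 3, and the line marks equal ratios. TRMT12 (TYW2) lies on the line at about -2.5 on both axes, while EFEMP1, DYNLT1 and DLD lie far to the left, at siRNA 3 ratios of 0.41, 0.08 and 0.24.

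Genes with bright probes that were higher with siRNA 3 are described first. Bright means a mean log2 intensity at or above 8.64, the median of tested probes. The 15 with the largest differences lay between 1.30 and 2.06 (adjusted p 0.000476 to 0.0093), and for all 15 the siRNA 2 ratio was called below control (9.78% of all tested probes were). With siRNA 3, 9 of the 15 were called against control, as were 20.1% of all tested probes. Being listed required that the siRNAs did not overlap within either dye orientation, which 43.2% of 24883 probes with all values met. Choosing the largest higher differences on these same arrays also favours low siRNA 2 ratios. The counts against control therefore follow in part from the choice.

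EFEMP1, which encodes the extracellular matrix glycoprotein fibulin-3, had the largest difference. Its log2 ratio was 0.50, 0.44 and 0.33 on the siRNA 3 arrays, against -1.63, -1.67 and -1.59 on the siRNA 2 arrays. The siRNA 3 arrays were all above control and the siRNA 2 arrays all far below it. The difference was 2.06 (SE 0.0677, adjusted p = 0.000476), or 4.16-fold higher with siRNA 3. The EFEMP1 ratio with siRNA 1 was 0.02. All 3 siRNAs differed from each other: siRNA 3 lay 0.40 above siRNA 1 (adjusted p = 0.0188), and the difference between siRNA 2 and siRNA 1 was -1.66 (adjusted p = 0.00202).

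DYNLT1, a light chain of the dynein motor, had ratios of 0.22, 0.28 and -0.14 with siRNA 3, against -1.92, -1.89 and -1.84 with siRNA 2 (difference 2.01, SE 0.109, adjusted p = 0.00176). The siRNA 3 arrays scattered around control, and no siRNA 2 array came near them. NT5E, the cell-surface nucleotidase CD73, had ratios of 0.68, 0.56 and 0.67 with siRNA 3, against -1.18, -1.46 and -0.92 with siRNA 2 (difference 1.82, SE 0.108, adjusted p = 0.00191). NT5E was thus above control with siRNA 3 and below it with siRNA 2, and both departures passed the test (adjusted p = 0.00227 with siRNA 3 and 0.000381 with siRNA 2). LCP1, the actin-bundling protein L-plastin, differed by 1.35, with ratios of 0.07, 0.05 and 0.10 with siRNA 3 against -1.32, -1.34 and -1.18 with siRNA 2.

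Of the named genes, DLD, GLO1, ALDH2 and PANK1 encode metabolic enzymes. DLD, the lipoamide dehydrogenase shared by the pyruvate, oxoglutarate and branched-chain keto-acid dehydrogenase complexes, had ratios of 0.34, 0.45 and 0.02 with siRNA 3, against -1.56, -1.72 and -1.68 with siRNA 2 (difference 1.92, SE 0.0958, adjusted p = 0.00176). GLO1, the glyoxalase that detoxifies methylglyoxal, had ratios of 0.16, 0.24 and 0.03 with siRNA 3, against -1.53, -1.55 and -1.45 with siRNA 2 (difference 1.65, SE 0.0755, adjusted p = 0.00176). ALDH2, the mitochondrial aldehyde dehydrogenase, had ratios of -0.28, -0.05 and -0.48 with siRNA 3, against -1.91, -1.66 and -1.76 with siRNA 2 (difference 1.51, SE 0.113, adjusted p = 0.00292). For DLD and GLO1 the siRNA 3 ratios did not pass the test against control (adjusted p = 0.0555 and 0.147), whereas ALDH2 was lower than control with siRNA 3 (adjusted p = 0.0481) and much lower with siRNA 2. PANK1, a pantothenate kinase that starts coenzyme A synthesis, differed by 1.44, with 0.61, 0.44 and 0.57 on the siRNA 3 arrays and -0.84, -0.95 and -0.91 on the siRNA 2 arrays. A second, dimmer PANK1 probe gave 0.00 (adjusted p = 0.982), so its call rests on 1 probe.

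Other named genes act on RNA, ubiquitin or SUMO. SERBP1, an mRNA- and ribosome-binding protein, had ratios of 0.54, 0.61 and 0.39 with siRNA 3, against -0.88, -0.94 and -0.95 with siRNA 2 (difference 1.43, SE 0.0725, adjusted p = 0.00176). UBA2, a subunit of the SUMO-activating enzyme, had ratios of 0.42, 0.39 and 0.43 with siRNA 3, against -0.86, -0.90 and -0.91 with siRNA 2 (difference 1.30, SE 0.0679, adjusted p = 0.00176). In both genes the 3 arrays of each siRNA lay close together and on opposite sides of control. TOPORS, a ubiquitin and SUMO ligase, differed by 1.42, while its dim second probe gave 0.21 (adjusted p = 0.548). UBXN8, an adaptor of the VCP ATPase, differed by 1.57. LMO7, a protein of cell junctions, differed by 1.50. BLTP3B differed by 1.37 on 1 probe, while 2 other probes of it gave 0.31 (adjusted p = 0.0354) and 0.16 (adjusted p = 0.307). RBAK, a zinc-finger repressor, differed by 1.31, but its spot lies beside the DYNLT1 spot, which was at least 8 times brighter and moved the same way; whether signal of the neighbour reached it was not tested. BLTP3B, UBA2 and, among the lower genes below, SREK1, TOP2A, BBX and EZH2 also lie beside such a spot, and those neighbours differed by -0.02 to 0.25. Of all called probes, 581 lie beside such a spot, as do 10937 of all tested probes.

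With siRNA 1, 14 of these 15 genes lay nearer to siRNA 3 than to siRNA 2, and all 15 differed between siRNA 2 and siRNA 1, as did 2.62% of all tested probes. Of the 15, 6 also differed between siRNA 3 and siRNA 1, as did 9.35% of all tested probes. Each pair of these comparisons shares arrays. The share of all tested probes with siRNA 1 nearer to siRNA 3 was not counted. Choosing by size also favours genes in which siRNA 2 or siRNA 3 stands apart, so these counts follow in part from the choice. The difference sat in the knockdown channel: after scaling the single channels, that channel differed by 1.31 to 2.30 between siRNA 3 and siRNA 2, and the control channel by -0.20 to 0.31.

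**Figure D2:**
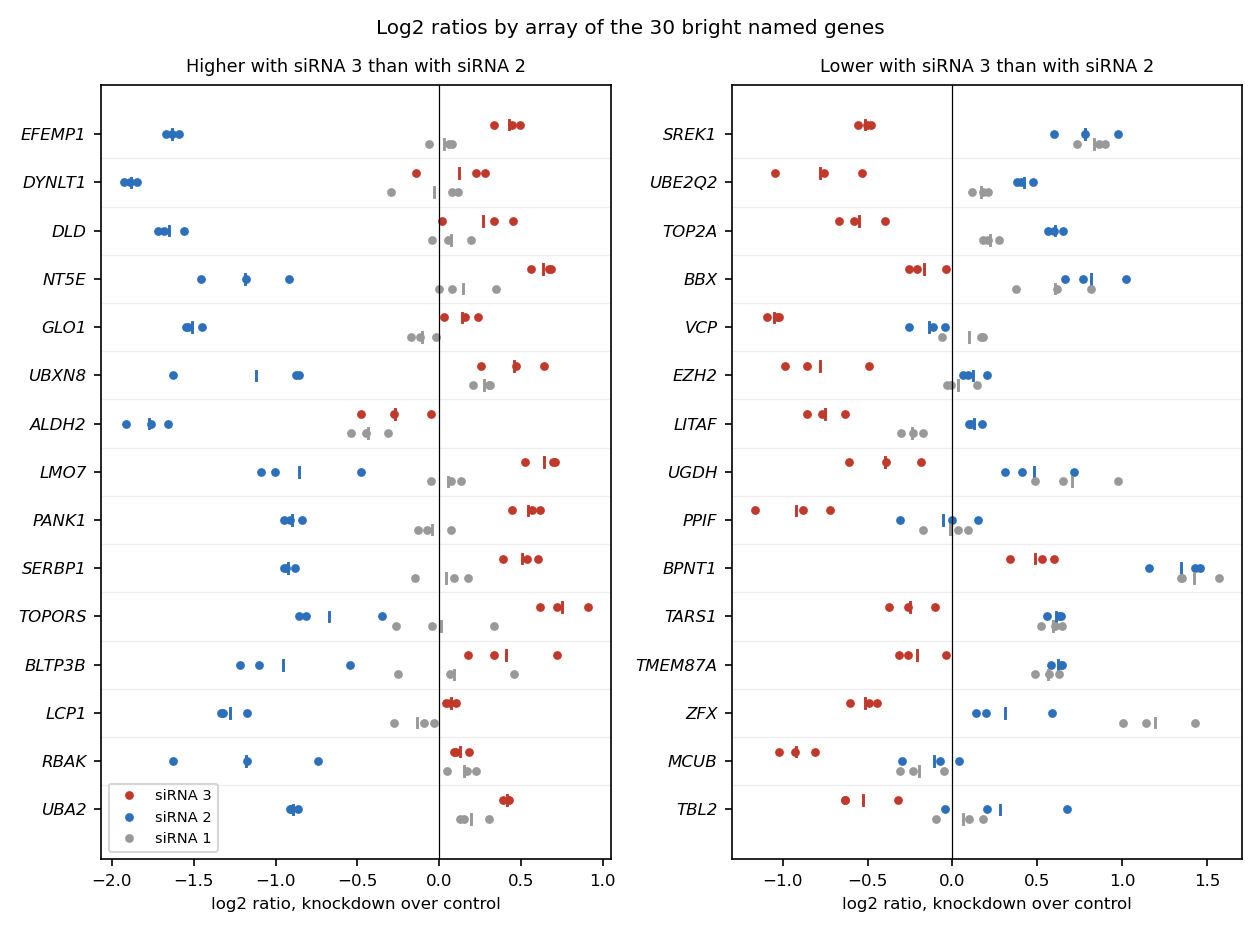
Log2 ratio of knockdown over control (horizontal axis) on each array for the 15 bright genes with the largest higher difference (left) and the 15 with the largest lower difference (right); red is siRNA 3, blue siRNA 2 and grey siRNA 1, 3 arrays each, and short bars are their means. On the left the blue points lie below control and apart from red and grey, and on the right the red points lie apart from blue and grey.

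The bright genes that were lower with siRNA 3 had smaller differences, between -0.81 and -1.30 (adjusted p 0.00176 to 0.0222). All 15 differed between siRNA 3 and siRNA 1 (9.35% of all tested probes did), 2 differed between siRNA 2 and siRNA 1 (2.62%), and with siRNA 1 all 15 lay nearer to siRNA 2. Of the 15, 14 were called against control with siRNA 3 and 10 with siRNA 2, as were 20.1% and 20.3% of all tested probes. Choosing by size on these same arrays favours such calls, so these counts follow in part from the choice. The share of all tested probes with siRNA 1 nearer to siRNA 2 was not counted.

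In one set of these genes the siRNA 3 arrays were below control and the siRNA 2 arrays closer to it. VCP, the ATPase that extracts ubiquitinated proteins from membranes and complexes, had ratios of -1.03, -1.02 and -1.09 with siRNA 3, against -0.04, -0.12 and -0.26 with siRNA 2 (difference -0.91, SE 0.0625, adjusted p = 0.00215). PPIF, the mitochondrial cyclophilin that regulates the permeability transition pore, had ratios of -0.72, -0.88 and -1.16 with siRNA 3, against -0.00, 0.15 and -0.31 with siRNA 2 (difference -0.87, SE 0.0777, adjusted p = 0.00442). MCUB, a subunit of the mitochondrial calcium uniporter, differed by -0.81, and a second probe by -0.49 (adjusted p = 0.0229). EZH2, the histone methyltransferase of Polycomb complex PRC2, had ratios of -0.99, -0.85 and -0.49 with siRNA 3, against 0.06, 0.09 and 0.20 with siRNA 2 (difference -0.90, SE 0.0846, adjusted p = 0.00523). A brighter EZH2 probe had a difference of -0.25 that missed the threshold (adjusted p = 0.0797). LITAF, a late endosomal protein, differed by -0.88 on 1 probe and by -0.08 on a dimmer one (adjusted p = 0.531).

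In a further set the siRNA 2 arrays were above control. TOP2A, the DNA topoisomerase of dividing cells, had ratios of -0.67, -0.58 and -0.40 with siRNA 3, against 0.60, 0.57 and 0.65 with siRNA 2 (difference -1.16, SE 0.0639, adjusted p = 0.00176). Every siRNA 3 array lay below control and every siRNA 2 array above it. BPNT1, a bisphosphate nucleotidase, had ratios of 0.53, 0.60 and 0.34 with siRNA 3, against 1.43, 1.46 and 1.16 with siRNA 2 (difference -0.86, SE 0.0785, adjusted p = 0.00472). It was above control with both siRNAs and further above it with siRNA 2. UBE2Q2, a ubiquitin-conjugating enzyme, differed by -1.20 on the listed probe, by -0.80 on another (adjusted p = 0.00481) and by -0.10 on a brighter one (adjusted p = 0.358). ZFX, a zinc-finger transcription factor, differed by -0.82, and its dimmer second probe by -0.74 (adjusted p = 0.0173). For 6 of the 15 lower genes, a sizeable part of the difference in ratio, 25% or more, came from the control channel. These were TOP2A, BPNT1, ZFX, SREK1, TARS1 and TMEM87A. In TOP2A the knockdown channel differed by -0.69 and the control channel by 0.46. In SREK1 (-0.63 and 0.67) and TMEM87A (-0.39 and 0.44) the control channel differed more than the knockdown channel.

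Other genes of this set had probes that disagreed. SREK1, a splicing regulator, had ratios of -0.56, -0.50 and -0.48 with siRNA 3, against 0.78, 0.98 and 0.60 with siRNA 2 (difference -1.30, SE 0.0914, adjusted p = 0.00235). A second SREK1 probe gave -1.02 (adjusted p = 0.0109), while the brightest gave 0.34 in the opposite direction (adjusted p = 0.0276), so no direction is given for the gene. TARS1, the threonyl-tRNA synthetase, differed by -0.86 on the listed probe and by 0.25 on a brighter one (adjusted p = 0.091). UGDH, TMEM87A and TBL2 differed by -0.87, -0.83 and -0.81, and brighter probes of them gave -0.04, -0.01 and -0.08, none of which passed the test. BBX, an HMG-box protein, differed by -0.98, with -0.39 (adjusted p = 0.032) and -0.11 (adjusted p = 0.488) on 2 brighter probes. Such disagreement was common: where a gene was tested by more than 1 probe (4177 genes), probes of both signs occurred in 49.6%, and 24 genes had calls in both directions.

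Among dim probes the largest higher differences were LAMB4 with 1.75, ARHGAP11A with 1.56, TRAM2 with 1.44, PEG10 with 1.33 and PABPC4 with 1.31. LAMB4 lies beside the much brighter DLD spot, which moved the same way. PABPC4, a cytoplasmic poly(A)-binding protein, was also higher on its bright second probe, by 1.07 (SE 0.101, adjusted p = 0.00523). The largest lower differences were NCOA7 with -1.47, DDC with -1.24, LCLAT1 with -1.18, CLASP2 with -1.18 and H2BC26 with -1.12. Part of each lay in the control channel. The knockdown and control channels differed by -0.39 and 0.79 in LCLAT1 and by -0.56 and 0.62 in CLASP2. They differed by -0.82 and 0.43 in DDC, -0.73 and 0.39 in H2BC26, and -1.13 and 0.35 in NCOA7. TRAM2, LCLAT1, CLASP2 and H2BC26 were above background in both channels on only 5 of the 6 arrays. NCOA7, a coactivator of nuclear receptors, had -0.29 (adjusted p = 0.0518) and -0.14 (adjusted p = 0.291) on 2 brighter probes, and CLASP2 had 0.38 on another dim probe (adjusted p = 0.0733).

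Pathways were described through gene lists, with the brightest probe taken for each gene. Left-out arrays are given for each list as counts of called members in both directions together. Each count is taken afresh in its own fit, so the members called there need not be those named. They are to be read against the fall over all tested probes, from 2869 calls in the main fit. Those calls numbered 536, 663 and 1326 without array 1, 2 or 3 of siRNA 3. Without array 1, 2 or 3 of siRNA 2 they numbered 1117, 1900 and 2358, and with the authors' ratio 989. Of 14173 named genes, 1104 were called higher with siRNA 3 (7.79%) and 511 lower (3.61%), 11.4% in all, and the lists are read against these shares. In the settings that left few calls in all, the list calls went too: with median centring no list of the 43 had more than 2 called members. The lists are therefore descriptions of the loess-normalised values.

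The desmosome and tight junction list had the highest share called, 15 of 27 measured members (55.6%), with 10 higher and 5 lower. The plaque proteins periplakin (PPL, 0.56), envoplakin (EVPL, 0.59), plakophilin 2 (PKP2, 0.50), desmoplakin (DSP, 0.36) and plakoglobin (JUP, 0.30) were higher with siRNA 3, as were the tight junction scaffolds TJP1 (0.48) and cingulin (CGN, 0.54). PPL had ratios between -0.02 and 0.14 on the siRNA 3 arrays, against -0.60 to -0.38 on the siRNA 2 arrays. Claudins went both ways: CLDN1 was higher by 0.58, and CLDN4 and CLDN7 were lower by 0.68 and 0.36 on the log2 scale. CLDN1 was above control with both siRNAs, at 1.18 with siRNA 3 and 0.60 with siRNA 2. The desmosomal cadherin DSG2 differed by -0.47 and beta-catenin (CTNNB1) by -0.32. Plakophilin 1 (PKP1), on a dim probe, had a difference of 0.65 that did not pass (adjusted p = 0.159). Against 15 in the main fit, junction calls numbered 3, 3 and 6 without array 1, 2 or 3 of siRNA 3. They numbered 7, 9 and 9 without array 1, 2 or 3 of siRNA 2, and 6 with the authors' ratio.

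The extracellular matrix list had 11 of 50 members higher and 0 lower (22.0%). The matrix calls numbered 4, 4 and 4 without array 1, 2 or 3 of siRNA 3, 5, 8 and 10 without array 1, 2 or 3 of siRNA 2, and 2 with the authors' ratio. Besides EFEMP1, the laminin chain LAMB1 (0.56), fibronectin (FN1, 0.52), the integrin chains ITGB6 (0.48) and ITGB1 (0.29), and collagen COL5A2 (0.60, dim) were higher. Fibrillin 1 (FBN1) had a difference of 1.29 that did not pass (adjusted p = 0.0752), and the dim probes of COL6A1 and COL12A1 had -0.72 and -0.42 (adjusted p = 0.273 and 0.366).

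The cell cycle was covered by a G2 and mitosis list and a G1/S list. Of 46 genes of G2 and mitosis, 13 were higher and 2 lower with siRNA 3 (32.6%), with a median difference of 0.19, against 0.01 over all named genes. The kinesins KIF4A (0.84), KIF23 (0.71), KIF20A (0.44) and CENPE (0.58), the spindle assembly factor TPX2 (0.75), the spindle checkpoint proteins BUB1B (0.71) and BUB1 (0.41), and the condensin subunits SMC2 (0.63) and NCAPD2 (0.51) were higher. KIF23 had ratios of 0.20 to 0.34 on the siRNA 3 arrays, against -0.57 to -0.37 on the siRNA 2 arrays. TOP2A was lower, as described above, and so was BIRC5, the survivin of the chromosomal passenger complex, by 0.40 on the log2 scale. The list median was 0.07 for siRNA 3 and -0.17 for siRNA 2, and siRNA 1 gave -0.30. Of 48 genes of G1/S and replication, 5 were higher and 1 lower (12.5%), near the share of all genes; MCM3 (0.52), RB1 (0.68) and POLA1 (0.56) were higher and GINS4 was lower by 0.48 on the log2 scale. E2F2 and E2F1 had the most extreme values, 0.89 and -1.69, and neither passed (adjusted p = 0.155 and 0.407). The G2 and mitosis calls numbered 4, 8 and 7 without array 1, 2 or 3 of siRNA 3, 11, 12 and 11 without array 1, 2 or 3 of siRNA 2, and 8 with the authors' ratio. For G1/S the calls numbered 0, 0 and 3 without array 1, 2 or 3 of siRNA 3, 3, 4 and 5 without array 1, 2 or 3 of siRNA 2, and 2 with the authors' ratio.

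Many promoters of such late cell cycle genes carry the cell cycle genes homology region (CHR), searched here by the letters TTTGAA on both strands in the 250 bases before the gene start (RefSeq, GRCh38.p14). Promoters were found for 39 of the 46 measured genes, and 20 of them held the letters, against 13.6% of 27305 promoters in the table. The letters were in 6 of 12 matched genes called higher, in TOP2A, the 1 matched gene called lower, and in 13 of 26 not called. They are shown, in capitals, for 3 genes that were higher and for TOP2A, because they were found upstream of genes that differed in opposite directions; a match is not evidence of binding. The windows are chrX:70289854-70290103 (plus strand) for KIF4A, chr15:40160819-40161068 (plus strand) for BUB1B, chr15:69414099-69414348 (plus strand) for KIF23 and chr17:40417897-40418146 (minus strand) for TOP2A, which holds the letters once on each strand.
KIF4A: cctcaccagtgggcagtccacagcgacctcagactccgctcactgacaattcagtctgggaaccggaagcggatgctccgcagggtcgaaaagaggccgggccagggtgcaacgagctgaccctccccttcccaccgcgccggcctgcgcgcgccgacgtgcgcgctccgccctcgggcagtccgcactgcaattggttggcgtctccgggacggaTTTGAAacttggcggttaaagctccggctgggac
BUB1B: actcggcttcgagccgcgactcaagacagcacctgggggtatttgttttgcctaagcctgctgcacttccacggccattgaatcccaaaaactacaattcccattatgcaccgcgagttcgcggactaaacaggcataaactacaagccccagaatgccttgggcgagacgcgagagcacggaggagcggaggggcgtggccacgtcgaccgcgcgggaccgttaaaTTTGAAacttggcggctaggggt
KIF23: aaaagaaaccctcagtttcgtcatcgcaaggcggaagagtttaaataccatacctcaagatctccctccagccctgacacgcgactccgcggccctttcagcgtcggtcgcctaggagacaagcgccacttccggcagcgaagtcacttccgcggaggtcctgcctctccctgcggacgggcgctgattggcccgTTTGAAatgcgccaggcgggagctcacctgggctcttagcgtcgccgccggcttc
TOP2A: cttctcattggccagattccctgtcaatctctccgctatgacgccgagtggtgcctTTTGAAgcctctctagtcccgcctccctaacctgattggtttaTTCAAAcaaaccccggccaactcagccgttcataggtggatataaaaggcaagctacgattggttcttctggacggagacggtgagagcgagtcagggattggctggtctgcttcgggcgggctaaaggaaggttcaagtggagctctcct

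**Figure D3:**
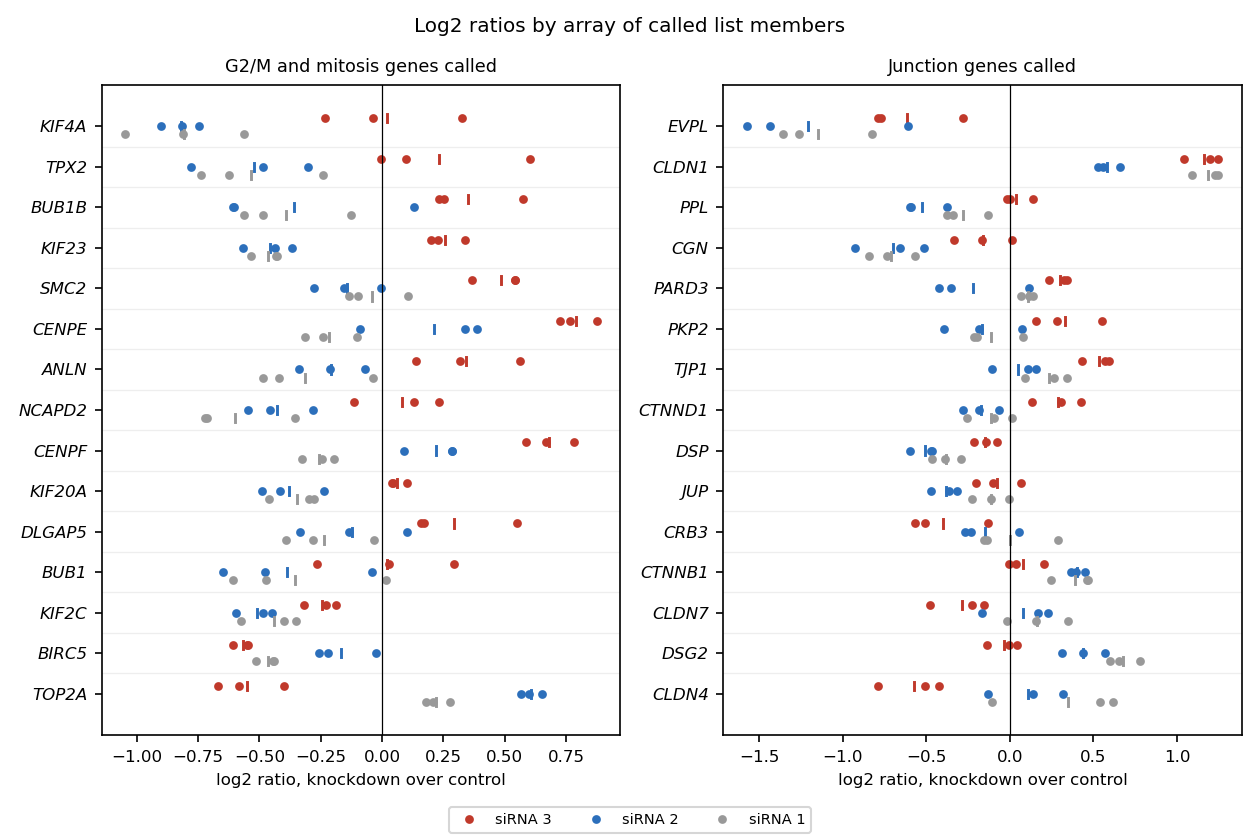
Log2 ratio of knockdown over control (horizontal axis) on each array for the 15 called genes of the G2 and mitosis list (left) and the 15 called genes of the desmosome and tight junction list (right); red is siRNA 3, blue siRNA 2 and grey siRNA 1, and short bars are means of 3 arrays. Most red points lie to the right of the blue ones on the left panel down to KIF2C, whereas BIRC5 and TOP2A run the other way.

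Called sterol genes were mostly higher with siRNA 3, as were all called named genes (1104 higher and 511 lower). Of 24 measured members of the cholesterol list, 7 were higher and 2 lower (37.5%). The sterol calls numbered 3, 4 and 4 without array 1, 2 or 3 of siRNA 3, 5, 6 and 5 without array 1, 2 or 3 of siRNA 2, and 2 with the authors' ratio. SQLE, the squalene epoxidase (0.61), the synthase HMGCS1 (0.36) and the isomerase IDI1 (0.41) were among those higher. SQLE had ratios of 0.71, 0.74 and 0.40 with siRNA 3, all above control, against -0.01, 0.15 and -0.11 with siRNA 2, scattered around it. CYP51A1 and PMVK differed by -0.31 and -0.29.

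Called members of the stress-related NRF2 and ATF4 lists were mostly lower with siRNA 3. In the NRF2 list, 0 of 27 members were higher and 7 were lower (25.9%), with a median difference of -0.24. The NRF2 calls numbered 0, 0 and 3 without array 1, 2 or 3 of siRNA 3, 0, 2 and 4 without array 1, 2 or 3 of siRNA 2, and 0 with the authors' ratio. The iron-storage chains FTL (-0.50) and FTH1 (-0.41), sulfiredoxin (SRXN1, -0.36), the aldo-keto reductases AKR1C3 (-0.64, dim), AKR1C2 (-0.49, dim) and AKR1B10 (-0.34), and NFE2L2, which encodes NRF2 itself (-0.30), were lower. FTL was at -0.20 with siRNA 3 and 0.30 with siRNA 2. ABCC2 and ME1 had the highest values, 0.34 and 0.27, neither past the test. In the ATF4 list, 1 of 27 was higher and 5 were lower (22.2%). The ATF4 calls numbered 2, 3 and 4 without array 1, 2 or 3 of siRNA 3, 4, 6 and 5 without array 1, 2 or 3 of siRNA 2, and 4 with the authors' ratio. DDIT4, an inhibitor of mTORC1 signalling (-0.52), the transcription factor CEBPB (-0.51), PSPH, the last enzyme of serine synthesis (-0.42), SESN2 (-0.35) and NUPR1 (-0.31) were lower, and the glutamine transporter SLC1A5 was higher by 0.40. The dim probe of ALDH1L2 had -0.96 (adjusted p = 0.331). ATF5 had 0.35 (adjusted p = 0.366).

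Called members of the lists of RNA processing and membrane traffic were mostly higher with siRNA 3, as were all called named genes (1104 higher and 511 lower). Among splicing factors 11 of 47 were higher and 3 lower (29.8%). The splicing calls numbered 7, 6 and 8 without array 1, 2 or 3 of siRNA 3, 8, 12 and 10 without array 1, 2 or 3 of siRNA 2, and 7 with the authors' ratio. The largest splicing difference called was that of SNRPD1, a core protein of the spliceosomal snRNPs, at 1.04, followed by HNRNPR and SRSF1 at 0.70 each; HNRNPA2B1 (-0.51), SNRNP200 (-0.41) and PRPF31 (-0.28) were lower. SF3B4, with 0.75 on a dim probe, and HNRNPK, with -0.43, did not pass (adjusted p = 0.441 and 0.0898). Among RAB GTPases and vesicle coat genes 12 of 47 were higher and 2 lower (29.8%), among them RAB27B (0.78, dim), RAB31 (0.68) and RAB10 (0.62); RAB7A (-0.30) and RAB18 (-0.25) were lower. The calls of this list numbered 3, 4 and 3 without array 1, 2 or 3 of siRNA 3, 4, 9 and 7 without array 1, 2 or 3 of siRNA 2, and 1 with the authors' ratio. RAB14 and RAB22A had 1.16 and -0.35 and did not pass (adjusted p = 0.16 and 0.159). In the nonsense-mediated decay list 5 of 15 were higher and 0 lower (33.3%), among them CASC3 (0.57) and UPF3B (0.51), while SMG6 and SMG1 had -1.33 and -0.55 without passing (adjusted p = 0.201 and 0.0566). The decay calls numbered 1, 2 and 2 without array 1, 2 or 3 of siRNA 3, 2, 6 and 3 without array 1, 2 or 3 of siRNA 2, and 1 with the authors' ratio.

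**Figure D4:**
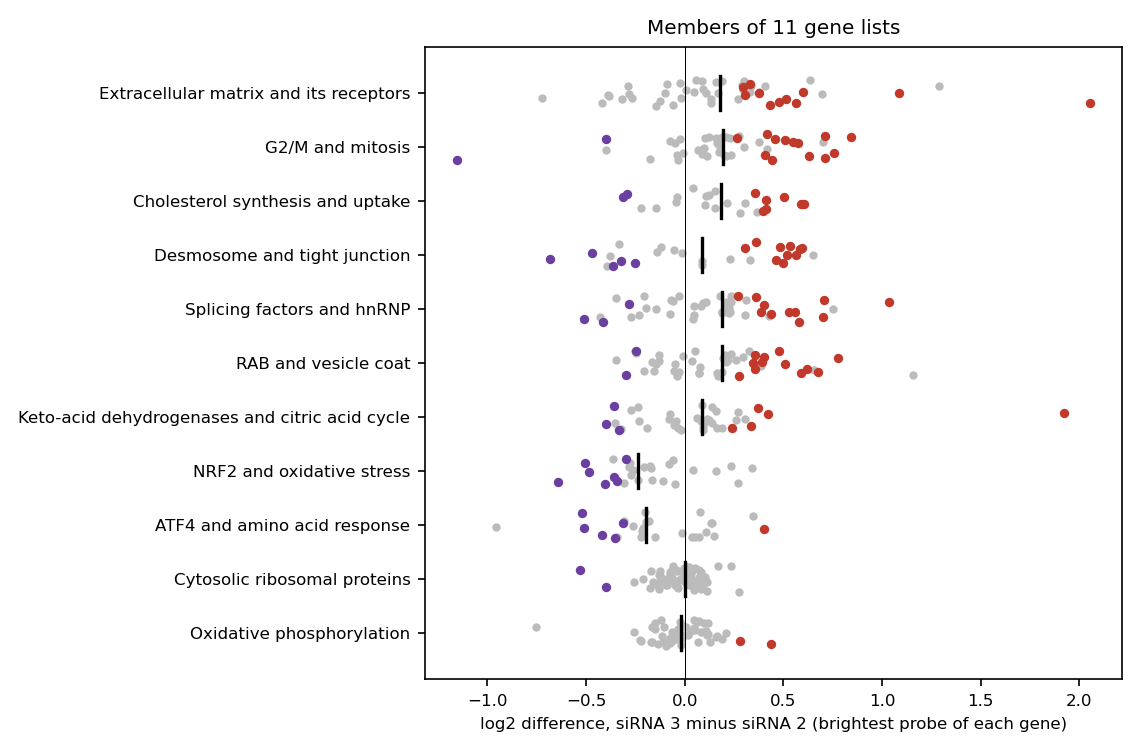
Difference in log2 ratio, siRNA 3 minus siRNA 2 (horizontal axis), of every measured member of 11 gene lists, 1 point per gene; red points were called higher, purple points lower and grey points neither, and black bars are list medians. The G2 and mitosis list has its median at 0.19 and the NRF2 list at -0.24, while ribosomal proteins and oxidative phosphorylation genes gather near 0.

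In the keto-acid dehydrogenase and citric acid cycle list 5 of 36 were higher and 3 lower (22.2%). Besides DLD, these were DLST (0.42), PDHX (0.37), IDH3A (0.34) and MDH1 (0.24), against BCKDHB (-0.40), SUCLG2 (-0.36) and IDH3G (-0.33); no other member came near the size of DLD. Calls in this list numbered 1, 1 and 2 without array 1, 2 or 3 of siRNA 3, 2, 4 and 3 without array 1, 2 or 3 of siRNA 2, and 2 with the authors' ratio. Of 22 aldehyde dehydrogenases and glyoxalases, GLO1, ALDH2 and ALDH1L1 (0.54) were higher and no member was lower (13.6%), and the dim probes of ALDH5A1 and ALDH1L2 had -1.17 and -0.96 without passing. Of 20 heat shock genes 4 were higher and 0 lower (20.0%), led by HSPH1 (0.58) and HSPA4L (0.54), with HSPB1 and DNAJB4 at -0.05 and -0.04. Heat shock calls numbered 0, 0 and 1 without array 1, 2 or 3 of siRNA 3, 3, 3 and 3 without array 1, 2 or 3 of siRNA 2, and 1 with the authors' ratio. In the SWI/SNF and Polycomb list 5 of 38 were higher and 1 lower (15.8%): PCGF3 (0.76) and JARID2 (0.63) were the highest, PHC3 was lower by 0.80 on the log2 scale, and SMARCD3 had -0.37 without passing. Of 36 aminoacyl-tRNA synthetases 3 were higher and 2 lower (13.9%), with EPRS1 (0.58) the highest called and WARS2 (-0.33) the lowest; VARS1 had 0.47 (adjusted p = 0.106) and FARS2 was lower by 0.28 on the log2 scale. Synthetase calls numbered 0, 0 and 1 without array 1, 2 or 3 of siRNA 3, 2, 4 and 2 without array 1, 2 or 3 of siRNA 2, and 1 with the authors' ratio. SWI/SNF and Polycomb calls numbered 4, 4 and 5 without array 1, 2 or 3 of siRNA 3, 4, 4 and 4 without array 1, 2 or 3 of siRNA 2, and 4 with the authors' ratio. Aldehyde dehydrogenase and glyoxalase calls numbered 2, 2 and 2 without array 1, 2 or 3 of siRNA 3, 2, 3 and 2 without array 1, 2 or 3 of siRNA 2, and 2 with the authors' ratio.

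Of 17 neighbours of TRMT12 on 8q24, 5 were higher and 1 lower (35.3%), among them WASHC5 (0.76), ZHX1 (0.72) and SQLE, while FBXO32 was lower by 0.49 on the log2 scale; HAS2 had -0.33 (adjusted p = 0.377). The 8q24 calls numbered 3, 4 and 5 without array 1, 2 or 3 of siRNA 3, 5, 6 and 5 without array 1, 2 or 3 of siRNA 2, and 4 with the authors' ratio. In the luminal list 4 of 26 were higher and 2 lower (23.1%): ESR1 (0.97, dim), FOXA1 (0.53), ELF5 and TFAP2C were higher and CLDN4 and CLDN7 lower, and CLDN3 had -0.38 (adjusted p = 0.0587). Luminal calls numbered 1, 1 and 6 without array 1, 2 or 3 of siRNA 3, 3, 4 and 6 without array 1, 2 or 3 of siRNA 2, and 3 with the authors' ratio. Of 20 NF-kB and inflammatory genes, IL6 was lower by 0.71 on the log2 scale, on a spot beside a much brighter one, and no other was called; CXCL8, ICAM1, TRAF1 and RELA had -0.97, -0.80, 0.49 and 0.30. By limma 0 of the 6 measured wybutosine synthesis genes were called, TRMT12 included (1 at an unadjusted p under 0.05); TYW1 and LCMT2 had 0.15 and 0.10, and TYW3 and TYW5 had -0.21 and -0.15. By the same limma fit, 0 of 27 interferon-stimulated genes and 0 of 14 stromal and blood markers were called (7 and 2 at an unadjusted p under 0.05). The sign of the list median changed with median centring for 12 of the 43 lists: heat shock proteins (-0.02), nonsense-mediated decay (-0.09), G1/S (-0.05), keto-acid dehydrogenases (-0.02), aminoacyl-tRNA synthetases (-0.03), interferon-stimulated genes, translation factors (-0.13), proteasome subunits (-0.11), hypoxia and glycolysis (-0.07), ERBB receptors (0.06), RNA interference (-0.02), and PI3K, AKT and mTOR signalling.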

How the data were processed

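Total RNA was amplified, coupled to Cy dyes and hybridised to printed arrays, per the labels' protocols; scanner and image program are not given in the sources used here. Per the file headers, the deposited array files hold the mean spot intensity of each channel less local background, the background intensity and its SD, the spot area in pixels, a quality fraction from 0 to 1 and the authors' calibrated ratio, which divides the ratio by 1 factor per array. Channels of dye-exchanged arrays had already been exchanged by the authors, per the series text; the authors' deposited log2 values matched the log2 calibrated ratio on Cy5 arrays and its negative on exchanged arrays.

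Here, spots that were not found or stood at the floor of 1 had no ratio. Log2 ratios were loess-normalised within arrays, blank and control spots carrying no weight, and fitted with limma 3.58.1 (R 4.3.3) on 9 arrays, with 1 coefficient for each siRNA and 1 for dye orientation. A probe was tested when at least 1 channel exceeded 2 background SD on 6 arrays and each siRNA had a ratio in both dye orientations; where an array had no ratio, the fit used the others. Probes were named from the platform annotation and RefSeq. The text names the 15 bright genes with the largest called difference each way, the 5 largest dim ones each way, and the extremes of each discussed list; further called list members were chosen after their values were seen. Some genes that the rule names are not reported here. Members and lists were chosen with earlier results of these data known. In simulated data on 28139 probes, 62% of changes of 1 log2 unit and 20% of changes of 0.5 were recovered for this contrast, with 4 false calls. Only 100 probes were changed by each size, far fewer than were called in the data. The noise was independent between arrays, without array-wide or intensity-dependent shifts, so the false calls give no error rate for the real calls. The number of arrays limits the precision. Alternatives covered background, normalisation, filters, samples and dye; leaving out probes beside bright spots and leaving out arrays 1 and 2 of siRNA 2 together were chosen after seeing the data.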

Additional observations from a re-analysis of the deposited data

Results flagged for a closer look

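For 15 of the 30 bright named genes, both siRNAs were called against control in opposite directions on the listed probe. The 30 were chosen for large called differences on these same arrays. Passing limma's test of the difference was thus fixed by the choice, which also favours opposite signs. The share of all tested probes with such opposite calls was not counted. Above control with siRNA 3 and below it with siRNA 2 were EFEMP1 (difference 2.06), NT5E (1.82), LMO7 (1.50), PANK1 (1.44), SERBP1 (1.43), TOPORS (1.42), BLTP3B (1.37) and UBA2 (1.30). Below control with siRNA 3 and above it with siRNA 2 were SREK1 (-1.30), UBE2Q2 (-1.20), TOP2A (-1.16), UGDH (-0.87), TARS1 (-0.86), TMEM87A (-0.83) and TBL2 (-0.81). Of these, PANK1, TOPORS, BLTP3B, SREK1, UBE2Q2, UGDH, TARS1, TMEM87A and TBL2 have another probe whose difference was not called or was called the other way. For SREK1, UGDH and TARS1 the direction against control also depends on the probe. With siRNA 3, a brighter probe of each was called above control. The ratios were 0.50 for SREK1, 0.36 for UGDH and 0.27 for TARS1 (limma adjusted p = 0.00155, 0.00878 and 0.0149). For SREK1, TOP2A, TARS1 and TMEM87A, 25% or more of the difference lay in the control channel. That channel differed between the siRNAs by 0.67, 0.46, 0.29 and 0.44.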

How the results depend on the processing

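No paired analysis was possible because the labels carry no replicate numbers shared between siRNAs. The number of probes called between siRNA 3 and siRNA 2, 2869, fell to 61 with median centring, 989 with the authors' ratio, 1358 without spots of quality under 0.5 (14150 probes tested), 27 with the Cy5 arrays alone, 0 with the 6 arrays alone (6004 at an unadjusted p under 0.05) and 0 without arrays 1 and 2 of siRNA 2 (3272 at an unadjusted p under 0.05). Leaving out 1 array of either siRNA gave 536 to 2358. Other settings gave 2869 to 3985, not all of them on 28139 probes. The 3985 calls came from 21710 probes with signal in both channels on all 6 arrays. Leaving out probes beside bright spots gave 3208 calls of 17202. Calls against control, 5658 with siRNA 3 and 5723 with siRNA 2, were 3334 and 2215 with median centring and 3241 and 2852 with 6 arrays. Without low-quality spots these calls were 2873 and 2796, but of 14150 probes tested in place of 28139. With the authors' ratio siRNA 2 had 3745. Leaving out 1 array gave 2256 to 6471 for siRNA 3 and 3214 to 4649 for siRNA 2. The cause of these shifts was not tested, beyond fewer arrays or probes entering the fit.

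The TRMT12 difference of 0.05 became -0.0507 with median centring, -0.0032 with normexp, -0.11 with scaling between arrays and -0.0606 without arrays 1 and 2 of siRNA 2. Of the 40 genes named for size, 27 kept their call with median centring, 36 with the authors' ratio and 40 with normexp. Calls kept numbered 12 with the Cy5 arrays alone, 0 with 6 arrays, and 33 to 40 without 1 array. None of the 40 reversed, which their choice by size and separation on these arrays had largely fixed. Uncalled extremes of lists did reverse. ALDH5A1 was 0.0455 with median centring, 0.11 with the authors' ratio, 0.23 without arrays 1 and 2 of siRNA 2, and -2.56 to 0.23 without 1 array. COL12A1 was 0.11 and HAS2 0.0619 with median centring, and they were 0.17 and 0.12 with the authors' ratio, as was ICAM1 at 0.0109. DNAJB4 was 0.0921 with the Cy5 arrays and -0.104 to 0.067 without 1 array. LCMT2 was -0.15 and TYW5 0.0223 without arrays 1 and 2 of siRNA 2, and LCMT2 was -0.0684 to 0.23 without 1 array. Dim probes near background set no firm level.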
